A study of Mus musculus with 9 samples.

Results

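The genes described here are 10 inflammatory and regulatory mediators: Il1b, Il1a, Il1rn, Tnf, Il6, Il10, Il12b, Il27, Ptgs2 and Nos2. They were chosen by name, and all 10 were found among the 45777 genes of the deposited tables. Of the 10, 8 were among the 13820 genes tested, which reached 1 TPM (transcripts per 1000000) in at least 3 of the 9 samples. Il12b and Nos2 stayed under that limit and are described by their values.

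RNA was sequenced in bulk from CD11b+ cells of mouse liver, 48 hours after acetaminophen (APAP) was injected to cause acute liver failure. CD11b is an integrin of monocytes, macrophages and neutrophils. All 9 samples came from mice given APAP, so there is no group without liver injury. The question the groups address is how extracellular vesicles (EVs), given into a vein 8 hours after APAP, changed these cells. The PBS group (n = 3) received buffered saline in place of vesicles. The HEK-EV group (n = 3) received vesicles labelled SIRP-EV of HEK cells, a line from human embryonic kidney. The MSC-EV group (n = 3) received SIRP-EV derived from cells labelled MSC. Strain, age and sex of the mice are not given in the sources used here. The labels do not say whether each sample was 1 mouse, so p-values measure only the spread between these samples, which may be technical.

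Interleukin-1 beta (Il1b) and interleukin-1 alpha (Il1a) signal through the same receptor, and the antagonist encoded by Il1rn occupies that receptor without signalling. Phagocytes make them, with tumour necrosis factor (Tnf), interleukin-6 (Il6) and cyclooxygenase-2 (Ptgs2), when receptors for microbial products or for debris of dead cells activate the transcription factor NF-kB. Interleukin-10 and interleukin-27 are known as restraining cytokines, interleukin-12 drives interferon-gamma production by lymphocytes, and Nos2 makes nitric oxide in macrophages activated by interferon-gamma.

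The promoters of 5 of the 10 genes are shown, from the most abundant of them, Il1b at 1319 TPM or more in every sample, to a low one, Il6 at no more than 3.64. RefSeq sequences of build GRCm38.p6 were matched for 7 of the 10 genes. Il1rn and Il12b, the other 2, are not shown, and the 250 bases of Il12b held 0 matches. Each line holds the 250 bases before the transcript start used by the RefSeq promoter table, 5′ to 3′ on the strand of the gene, and capitals mark motif matches. For Tnf, Ptgs2 and Il6 that start is the start of the gene. For Il1b and Il1a it lies downstream of the gene start, so that 25 and 214 bases of their lines lie inside the span of the gene.
Il1b, chr2:129371140-129371389, minus strand: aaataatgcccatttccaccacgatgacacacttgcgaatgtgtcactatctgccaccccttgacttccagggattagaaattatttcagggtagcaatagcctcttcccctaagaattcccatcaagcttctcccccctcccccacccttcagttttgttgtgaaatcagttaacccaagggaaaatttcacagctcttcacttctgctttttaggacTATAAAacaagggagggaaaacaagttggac
Il1a, chr2:129309973-129310222, minus strand: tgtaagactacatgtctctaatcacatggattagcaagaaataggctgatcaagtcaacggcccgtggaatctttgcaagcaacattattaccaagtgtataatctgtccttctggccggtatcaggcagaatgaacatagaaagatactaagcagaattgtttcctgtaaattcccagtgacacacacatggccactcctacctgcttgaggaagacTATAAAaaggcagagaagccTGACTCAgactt
Tnf, chr17:35202008-35202257, minus strand: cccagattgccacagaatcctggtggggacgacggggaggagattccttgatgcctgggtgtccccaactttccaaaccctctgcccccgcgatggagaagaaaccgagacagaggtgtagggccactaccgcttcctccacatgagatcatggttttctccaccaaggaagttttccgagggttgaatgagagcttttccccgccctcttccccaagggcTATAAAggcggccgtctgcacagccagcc
Ptgs2, chr1:150099781-150100030, plus strand: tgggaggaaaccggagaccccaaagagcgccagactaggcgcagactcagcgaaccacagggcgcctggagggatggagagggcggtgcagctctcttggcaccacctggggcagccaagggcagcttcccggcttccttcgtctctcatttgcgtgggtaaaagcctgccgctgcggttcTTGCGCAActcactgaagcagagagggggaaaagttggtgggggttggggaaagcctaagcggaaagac
Il6, chr5:30012864-30013113, plus strand: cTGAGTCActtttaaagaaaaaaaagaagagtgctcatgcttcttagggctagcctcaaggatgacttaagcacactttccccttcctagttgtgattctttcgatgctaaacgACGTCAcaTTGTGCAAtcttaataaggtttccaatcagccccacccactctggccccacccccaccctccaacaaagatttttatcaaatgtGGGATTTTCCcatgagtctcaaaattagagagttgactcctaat

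Of the motifs searched on both strands, TATAAA was found in Il1b at position -31, Il1a at -32 and Tnf at -29 from that transcript start. The AP-1 motif TGANTCA was found in Il1a at -12 and in Il6 at -249. Both matches of Il1a lie within the span of the gene. The C/EBP motif TTGCNNAA was found in Ptgs2 at -69 and in Il6 at -128. Il6 also held the NF-kB motif at -44 and the CRE half-site ACGTCA at -136. The interferon motif GAS (TTCNNNGAA) was in none of the 5 sequences, and no match shown overlaps another. Of 32851 RefSeq promoters, the same 250 bases held TATAAA in 12.4%, AP-1 in 6.75%, C/EBP in 9.56%, NF-kB in 3.9%, the CRE half-site in 6.47% and GAS in 7.02%. A match is a description of letters, and no match says nothing of a factor.

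In the coordinates of the tables (mm10), which equal those of RefSeq for all 10 genes, Il1b (gene ID 16176) spans 129364569 to 129371164 of chromosome 2 on the minus strand. Il1a (16175) lies near it at 129299609 to 129310186 on the same strand, and Il1rn (16181) lies apart at 24336860 to 24351491 of chromosome 2 on the plus strand. Tnf (21926) spans 35199367 to 35202007 of chromosome 17 on the minus strand, and Il6 (16193) spans 30013114 to 30019975 of chromosome 5 on the plus strand. Chromosome 1 carries Il10 (16153) at 131019845 to 131024970 and Ptgs2 (19225) at 150100031 to 150108234, both on the plus strand. Chromosome 11 carries Il12b (16160) at 44400063 to 44414677 and Nos2 (18126) at 78920787 to 78960226, both on the plus strand. Il27 (246779) spans 126589009 to 126595035 of chromosome 7 on the minus strand. Values are totals per gene, so no exon or transcript is singled out.

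Levels in all 9 samples set Il1b apart from the other 9 genes. Its mean of 1950 TPM ranked 48 among all genes of the tables, and Ptgs2 followed at 282 TPM, rank 531. Il1rn (85.0 TPM), Tnf (77.9 TPM) and Il1a (30.4 TPM) came next, then Il27 (6.26 TPM) and Il10 (4.8 TPM). Il6 averaged 2.14 TPM, Nos2 1.55 TPM and Il12b 0.489 TPM. The Nos2 mean rests on MSC-EV replicate 1, and in the other 8 libraries Nos2 was at or under 0.624 TPM.

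**Figure D1:**
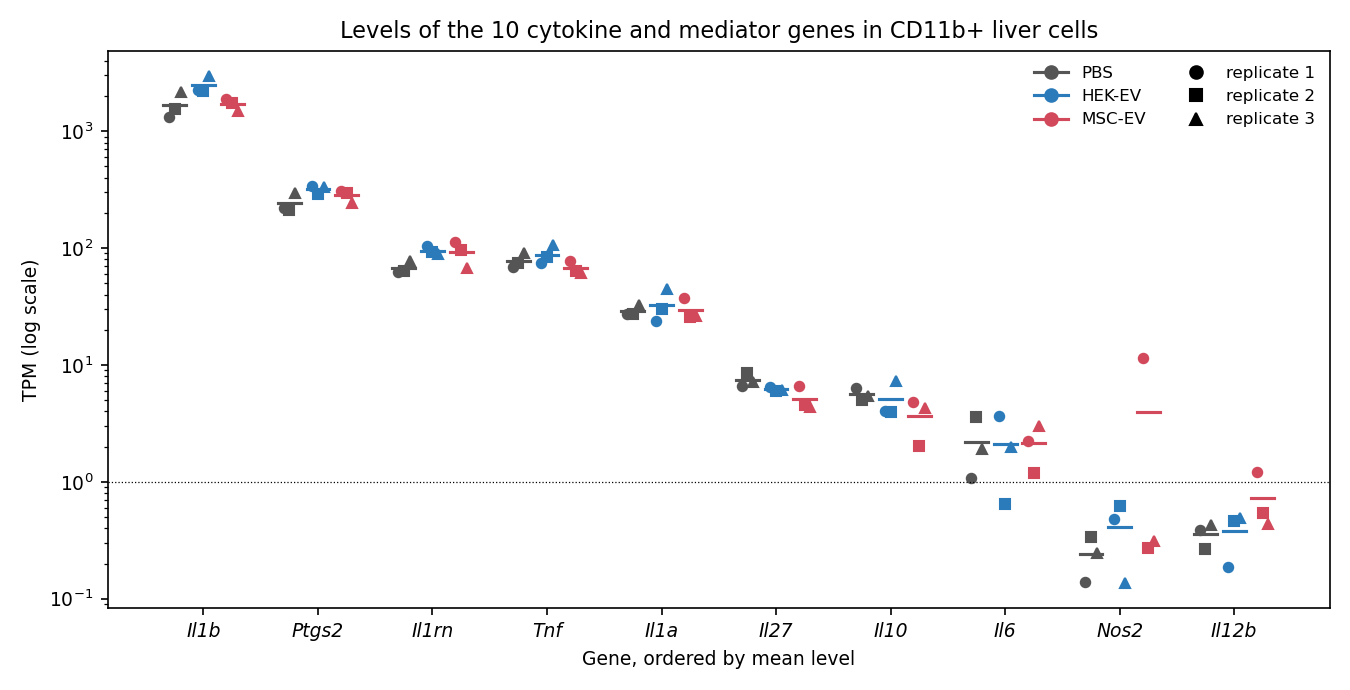
TPM of the 10 genes on a shared log axis, ordered by mean level, with 1 point per sample shaped by replicate number and a bar at the mean of each group of 3, and a dotted line at 1 TPM. Il1b lay at 1319 TPM or more in every sample, and Nos2 was above 1 TPM only in MSC-EV replicate 1.

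Il1b was higher in each HEK-EV sample than in any other sample, but its differences did not pass the test over all genes. PBS replicates 1 to 3 held 1319, 1546 and 2158 TPM of Il1b, HEK-EV replicates 1 to 3 held 2236, 2229 and 2963, and MSC-EV replicates 1 to 3 held 1871, 1732 and 1496. The HEK-EV values overlapped neither those of PBS nor those of MSC-EV, while PBS and MSC-EV overlapped. The group means were 1674 ± 434, 2476 ± 422 and 1700 ± 190 TPM (SD, n = 3 each). On the log2(TPM + 1) scale, which understates changes of low genes, HEK-EV minus PBS was 0.58 (SE 0.182) in the limma fit. That p was 0.0103, and the Benjamini-Hochberg adjusted p over 13820 genes was 0.999. MSC-EV minus HEK-EV was -0.54 (SE 0.182, limma adjusted p = 0.114), and MSC-EV minus PBS was 0.05 (SE 0.182, limma adjusted p = 0.909). With the ratio of coverage to FPKM as a covariate, MSC-EV minus HEK-EV was -0.71 (limma adjusted p = 0.0403). MSC-EV minus PBS turned to -0.35 (SE 0.245). That ratio, a measure that rises with depth, was 6.07 to 6.32 in MSC-EV and at most 5.98 in the other samples. The covariate is thus confounded with the MSC-EV group. MSC-EV minus PBS was also below 0 without PBS replicate 1 (-0.11) and without MSC-EV replicate 1 (-0.03). It lay between -0.11 and 0.24 over the fits that left out 1 library.

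Il1a, the form of interleukin-1 that is active without cleavage, was at 27.1, 27.0 and 32.6 TPM in PBS, 23.6, 29.9 and 44.5 in HEK-EV, and 37.2, 25.9 and 26.0 in MSC-EV. All 3 groups overlapped. The limma differences were 0.02 (SE 0.216) for MSC-EV minus PBS, 0.13 for HEK-EV minus PBS and -0.10 for MSC-EV minus HEK-EV, each with an interval that spans 0. Il1b and Il1a overlap genes on the opposite strand, Il1bos at 0.894 to 2.30 TPM and Gm14023 at 0.312 to 0.565 TPM. Whether reads were counted by strand is not given in the sources used here, so reads of the partners cannot be told apart with certainty.

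Il1rn, which encodes the interleukin-1 receptor antagonist, was at 62.9, 63.9 and 77.7 TPM in PBS, 103, 92.9 and 88.6 in HEK-EV, and 112, 95.8 and 67.4 in MSC-EV. The HEK-EV samples lay above all PBS samples, and MSC-EV replicate 3 lay within the PBS range. The difference from PBS was 0.47 (SE 0.165, limma adjusted p = 0.999) for HEK-EV and 0.40 (SE 0.165, limma adjusted p = 0.186) for MSC-EV. Without MSC-EV replicate 3 the latter was 0.60 and passed the threshold (limma adjusted p = 0.0368). Set against Il1b, Il1rn amounted to 4.77%, 4.14% and 3.60% of the Il1b level in PBS, 4.62%, 4.17% and 2.99% in HEK-EV, and 5.99%, 5.53% and 4.51% in MSC-EV. MSC-EV replicate 3 overlapped the PBS and HEK-EV ranges of that ratio, and no test was made on it.

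Tnf, the cytokine that acts through the receptors Tnfrsf1a and Tnfrsf1b, was at 69.1, 74.5 and 91.2 TPM in PBS, 73.8, 83.9 and 106 in HEK-EV, and 77.8, 63.7 and 61.0 in MSC-EV. All 3 groups overlapped. MSC-EV minus HEK-EV was -0.37 (SE 0.150, limma adjusted p = 0.177), MSC-EV minus PBS -0.21 (limma adjusted p = 0.455) and HEK-EV minus PBS 0.16 (limma adjusted p = 0.999).

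Ptgs2, the inducible enzyme of prostaglandin synthesis, was at 219, 213 and 295 TPM in PBS, 338, 291 and 330 in HEK-EV, and 308, 298 and 245 in MSC-EV. PBS replicates 1 and 2 held the lowest values, and PBS replicate 3 overlapped both vesicle groups. HEK-EV minus PBS was 0.41 (SE 0.134, limma adjusted p = 0.999) and MSC-EV minus PBS 0.23 (SE 0.134, limma adjusted p = 0.344). Averaged over both vesicle groups the difference from PBS was 0.32 (SE 0.116, limma adjusted p = 0.383).

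The restraining cytokines Il10 and Il27 were at under 10 TPM in every sample, and none of their differences passed the test. Il10 was at 6.39, 5.04 and 5.38 TPM in PBS, 4.04, 3.95 and 7.32 in HEK-EV, and 4.78, 2.02 and 4.28 in MSC-EV. Each MSC-EV sample lay below each PBS sample, while HEK-EV replicate 3 was the highest of all 9. MSC-EV minus PBS was -0.54 (SE 0.269, limma adjusted p = 0.267) and HEK-EV minus PBS -0.15 (SE 0.269, limma adjusted p = 0.999).

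Il27, which encodes the p28 chain of interleukin-27, was at 6.55, 8.52 and 7.15 TPM in PBS, 6.52, 6.0 and 6.06 in HEK-EV, and 6.59, 4.52 and 4.38 in MSC-EV. The HEK-EV values lay just under the lowest PBS value, and MSC-EV replicate 1 lay within the PBS range. MSC-EV minus PBS was -0.46 (SE 0.145, limma adjusted p = 0.0959), the smallest adjusted p of the 8 tested genes in that comparison. Ebi3, the second chain of interleukin-27, was at 55.1 to 62.8 TPM in PBS, 55.8 to 67.2 in HEK-EV and 46.8 to 53.0 in MSC-EV. The Il27 gene overlaps Apobr on the opposite strand, which was at 90.7 to 169 TPM, far above Il27, so the Il27 values are uncertain to that extent.

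Il6 and Il12b were near the limit of what was measured. Il6 was at 1.08, 3.57 and 1.91 TPM in PBS, 3.64, 0.646 and 1.99 in HEK-EV, and 2.22, 1.18 and 3.01 in MSC-EV. Its groups overlapped, its SE of 0.406 was the widest of the 8, and the direction of MSC-EV minus PBS (0.01) turned under median-of-ratios scaling (-0.01) and quantile normalization (-0.08). Il12b, the p40 chain shared by interleukin-12 and interleukin-23, was at 0.385, 0.265 and 0.424 TPM in PBS, 0.188, 0.466 and 0.488 in HEK-EV, and 1.21, 0.539 and 0.436 in MSC-EV. The MSC-EV values did not overlap those of PBS, and only MSC-EV replicate 1 was above 1 TPM. The partner chain Il12a was at or under 0.280 TPM in every sample. Il23a, which pairs with the same p40, was at 3.19 to 4.98 TPM in PBS, 4.07 to 4.44 in HEK-EV and 5.31 to 6.36 in MSC-EV. Its PBS and MSC-EV values did not overlap, as for 26.0% of all genes tested, and Il23a was not called in that comparison.

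Nos2 was at 0.139, 0.338 and 0.248 TPM in PBS, 0.477, 0.624 and 0.138 in HEK-EV, and 11.4, 0.270 and 0.311 in MSC-EV. MSC-EV replicate 1 was 18.3-fold above the next library, and the other 2 MSC-EV samples lay within the PBS range. No group difference can be read from 1 library, and in a fit with no filter on low values MSC-EV minus PBS was 1.15 with an SE of 0.799 (limma adjusted p = 0.562).

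Across the 8 tested genes, limma called 0 in MSC-EV against PBS, where 5.11% of all genes tested were called. It called 0 in HEK-EV against PBS (background 0%), 0 in MSC-EV against HEK-EV (background 5.91%) and 0 in both vesicle groups against PBS (background 0.00724%). Without adjustment, p was under 0.05 for 2 genes in MSC-EV against PBS (Il1rn and Il27), where 23.0% of all genes were past that limit. HEK-EV against PBS had 3 (Il1b, Il1rn and Ptgs2) where the background was 3.58%, MSC-EV against HEK-EV had 2 (Il1b and Tnf) at 23.3%, and both groups against PBS had 3 (Il1rn, Il27 and Ptgs2) at 10.9%. These comparisons share samples, so their counts are not independent. The groups did not overlap for 1 of the 8 in MSC-EV against PBS (26.0% of all genes), for 3 of 8 in HEK-EV against PBS (7.81%) for 1 of 8 in MSC-EV against HEK-EV (30.1%) and for 0 of 8 in both groups against PBS (2.13%). The median difference of the 8 was 0.02 in MSC-EV against PBS, 0.14 in HEK-EV against PBS and -0.21 in MSC-EV against HEK-EV. The medians of all genes tested were 0.01, 0.03 and -0.02. With quantile normalization the first of the 3 medians of the 8 turned to -0.02.

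**Figure D2:**
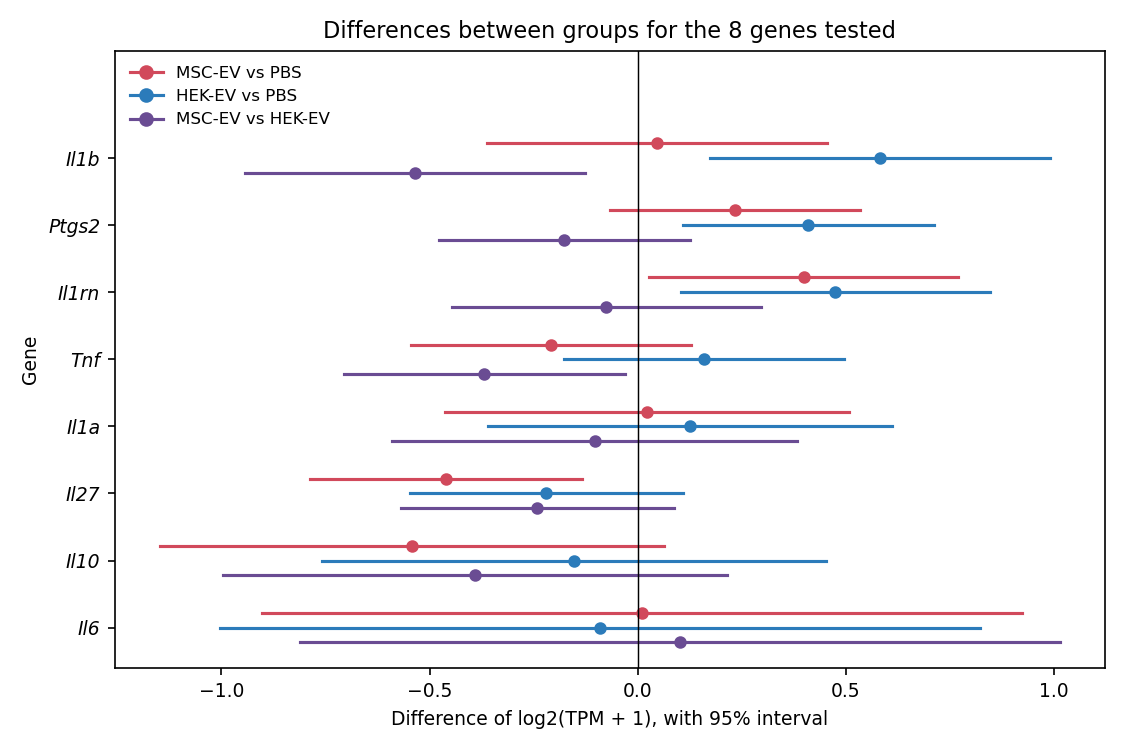
Differences of log2(TPM + 1) between groups for the 8 genes tested, as points with 95% intervals from limma, in 3 comparisons that share samples. The interval of HEK-EV minus PBS lay above 0 for Il1b, Ptgs2 and Il1rn and that of MSC-EV minus PBS above 0 for Il1rn and below 0 for Il27. That of MSC-EV minus HEK-EV lay below 0 for Il1b and Tnf, and no adjusted p was under 0.05.

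Marker genes of the cell types that the isolate could hold were summed beside these genes. Itgam, the gene of CD11b, was at 289 to 377 TPM in PBS, 339 to 434 in HEK-EV and 196 to 255 in MSC-EV. It was found in every sample, and all MSC-EV values lay below all others. The same held for the leukocyte gene Ptprc, at 515 to 647 TPM in PBS, 575 to 669 in HEK-EV and 418 to 428 in MSC-EV. The summed level of 14 neutrophil genes, led by S100a9 and S100a8, was 3178, 4368 and 5965 TPM in PBS, 5330, 5264 and 7391 in HEK-EV, and 3917, 3476 and 3104 in MSC-EV. Of the 14, 12 passed the filter, and Elane and Mpo, genes of immature neutrophils, were under 1 TPM in every sample. S100a8 and S100a9 made up 69.0% to 76.7% of the sum. In MSC-EV minus PBS 9 of the 12 genes were below 0 and 3 above, of which 0 were called lower and 1 higher. The 3 were the granule genes Camp, Ltf and Ngp, each higher in every MSC-EV sample than in any PBS sample. Ltf, the gene of lactoferrin, was at 2.88 to 2.99 TPM in PBS, 1.45 to 2.84 in HEK-EV and 4.76 to 7.43 in MSC-EV, a difference from PBS of 0.87 (SE 0.187, limma adjusted p = 0.0348). Il1b amounted to 41.5%, 35.4% and 36.2% of the neutrophil sum in PBS, 41.9%, 42.3% and 40.1% in HEK-EV, and 47.8%, 49.8% and 48.2% in MSC-EV, a ratio chosen after its values were seen. By that ratio the MSC-EV samples were the highest of the 3 groups, where by TPM the HEK-EV samples were. By the ratio, MSC-EV was also highest for Il1rn (2.17% to 2.86% in MSC-EV, at most 1.98% in the other 6) and Ptgs2 (7.87% to 8.57%, at most 6.90%). By TPM, the HEK-EV samples were not all the highest for either gene. MSC-EV replicate 1 held the most Il1rn (112 TPM). For Ptgs2, HEK-EV replicate 2 (291 TPM) lay below MSC-EV replicates 1 and 2 (308 and 298 TPM). The ratio did not set MSC-EV apart from PBS for Tnf. There MSC-EV (1.83% to 1.99%) lay within the PBS range (1.53% to 2.17%) and above HEK-EV (1.39% to 1.59%). These ratios follow S100a8 and S100a9 most, and ratios to single genes of the list were not examined. Csf3r, another gene of the list, was at 439 to 520 TPM in PBS, 555 to 658 in HEK-EV and 451 to 488 in MSC-EV. Its MSC-EV values lay within the PBS range, so the order of the groups by ratio may change with the marker chosen. The sum of 10 Ly6C-high monocyte genes was 6693 to 13268 TPM in PBS, 8468 to 10785 in HEK-EV and 4156 to 5101 in MSC-EV, and in MSC-EV minus PBS all 10 were below 0 and 5 were called lower. That of 8 Kupffer cell genes was 3269 to 3968, 2524 to 4554 and 2018 to 3301 TPM in the same order, with 7 of 8 below 0, 1 above and 0 called. The sum of 10 lymphocyte genes was 15.7 to 23.6, 15.6 to 28.4 and 21.8 to 30.0 TPM. Its 5 tested genes were above 0 in MSC-EV minus PBS, and 1 was called higher (Nkg7, a gene of cytotoxic lymphocytes). Nkg7, Ncr1 and Gzma were higher in every MSC-EV sample than in any PBS sample, while Cd3e, Cd3g and Cd8a were under 1 TPM in every sample. The sum of 8 dendritic cell genes was 195 to 250, 212 to 251 and 240 to 297 TPM, with 5 above 0, 3 below and 0 called, and of the 8 only Ccr7 was without overlap (1.26 to 2.91 TPM in PBS, 3.0 to 6.73 in MSC-EV). The sum of 8 endothelial genes was 303 to 378, 203 to 440 and 126 to 251 TPM, with all 8 below 0 in MSC-EV minus PBS and 0 called. The sum of 8 biliary genes was 741 to 1711, 895 to 1185 and 1774 to 2362 TPM, most of it Spp1, which macrophages also make, with all 7 tested above 0 in MSC-EV minus PBS and 4 called (Krt19, Epcam, Cldn7 and Sox9). In bulk RNA, fewer cells of a type and less RNA per cell cannot be told apart, and the part of these markers in the values of the 10 genes was not tested.

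**Figure D3:**
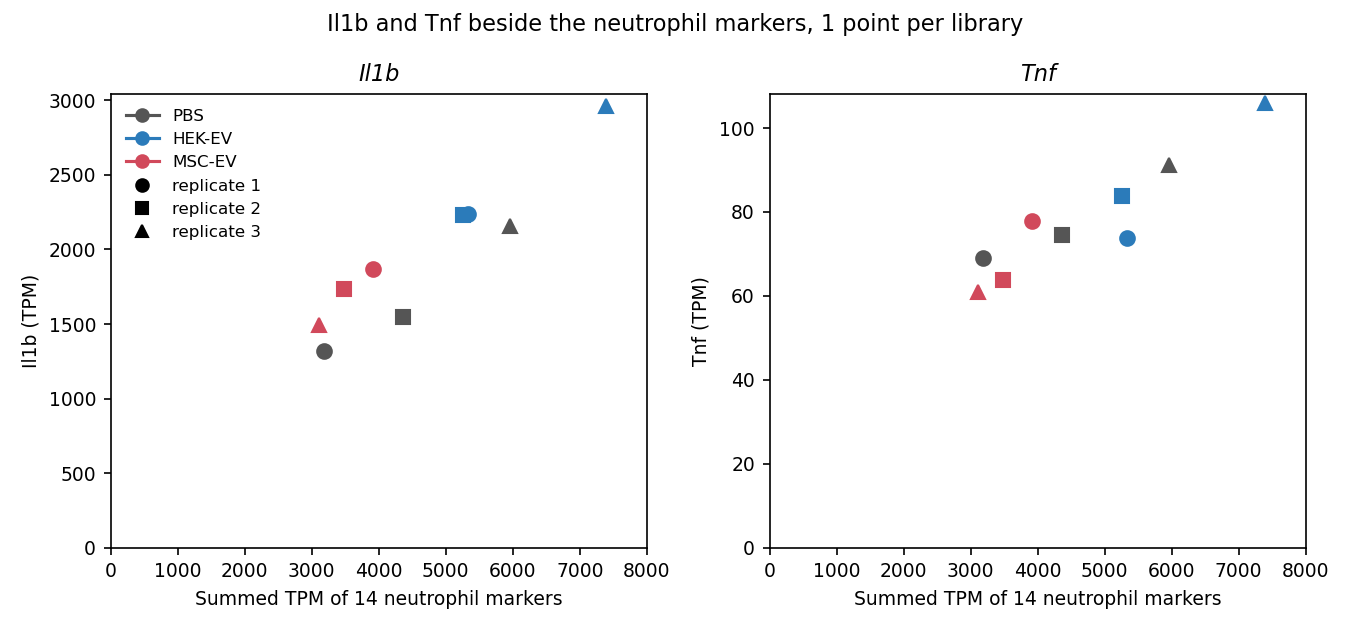
Il1b (left) and Tnf (right), in TPM, against the summed TPM of 14 neutrophil genes, with 1 point per sample, coloured by group and shaped by replicate number. All 3 MSC-EV samples had sums of at most 3917 TPM and all 3 HEK-EV samples of at least 5264, while PBS spread from 3178 to 5965.

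Other sample measures were as follows. A sum of 11 immediate early and heat shock genes, which rise during handling of cells, was 4992 to 5109 TPM in PBS, 3708 to 4865 in HEK-EV and 3171 to 3726 in MSC-EV. In MSC-EV minus PBS all 11 were below 0 and 5 were called lower, Fos, Fosb and Atf3 among them. The sum of 10 hepatocyte genes was 452 to 511, 381 to 524 and 680 to 793 TPM, with 9 above 0 in MSC-EV minus PBS, of which Apoa1, Cyp2e1 and Trf were called higher, and Ass1 below 0 (-0.32, not called). The share of TPM in pancreatic acinar genes was 0.121% for HEK-EV replicate 2 and 0.343% for MSC-EV replicate 3, against at most 0.0158% in the other 7. The ratio of coverage to FPKM was 4.86 to 5.83 in PBS, 5.75 to 5.98 in HEK-EV and 6.07 to 6.32 in MSC-EV. Read counts were not used here, so the depth is unknown and values carry no counting interval. By library, HEK-EV replicate 3 was the highest of all 9 for 4 of the 10 genes and MSC-EV replicate 1 for 3. Apart from fits with the coverage ratio or an acinar split as a term, the part of these measures in the differences was not tested.

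The genes whose profile over the 9 samples was nearest to a given member were found among 10269 genes with a mean of at least 5 TPM, by the root mean square (RMS) distance of centred log2(TPM + 1). Nearest to Il1b were Osm (0.094), which encodes oncostatin M, a cytokine of the interleukin-6 family, the chemokine receptor Ccr1 (0.117) and Sgms2 (0.120). The RMS spread of Il1b itself was 0.342. Osm was at 111 to 185 TPM in PBS, 180 to 229 in HEK-EV and 122 to 136 in MSC-EV. Nearest to Il1rn were Hcar2 (0.121), the receptor for niacin and ketone bodies, Ptgs2 (0.138) and Bcl2a1a (0.141), which has near-identical copies. Hcar2 was at 164 to 230 TPM in PBS, 260 to 268 in HEK-EV and 223 to 351 in MSC-EV. Nearest to Tnf were the small nucleolar RNA gene Snord34 (0.0803), the NF-kB regulator Nfkbid (0.0812) and the lectin receptor Clec4e (0.0972). Nearest to Il1a were Sco2 (0.113), Gng11 (0.127) and Csrnp1 (0.134), and nearest to Ptgs2 were the lectin receptor Clec4d (0.102), F630028O10Rik (0.115) and Osgin1 (0.125). Nearest to Il27 were Uba7 (0.0892), the activating enzyme for the ubiquitin-like protein ISG15, Trafd1 (0.103) and the class I gene H2-T23 (0.105).

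Among the direct receptors of these mediators, Ptger4, Tnfrsf1a and Tnfrsf1b were lower in MSC-EV than in PBS and than in HEK-EV. Of 15 receptor genes tested out of 19 listed, 3 were called lower and 0 higher in MSC-EV against PBS, where 5.11% of all genes were called. By sign alone, 9 of the 15 were below 0 and 6 above. Ptger4, a receptor for prostaglandin E2, was at 38.9, 40.8 and 43.4 TPM in PBS, 38.6, 36.7 and 36.0 in HEK-EV, and 22.2, 26.6 and 27.4 in MSC-EV. The MSC-EV values lay below all others. MSC-EV minus PBS was -0.68 (SE 0.0840, limma adjusted p = 0.0116) and MSC-EV minus HEK-EV was -0.53 (SE 0.0840, limma adjusted p = 0.0205). Tnfrsf1b, the inducible receptor for Tnf, was at 300, 364 and 341 TPM in PBS, 338, 319 and 312 in HEK-EV, and 225, 262 and 234 in MSC-EV. It fell by 0.48 against PBS and 0.43 against HEK-EV on the log2 scale (limma adjusted p = 0.0238 and 0.0263). Tnfrsf1a, the receptor for Tnf found on most cells, was at 255, 287 and 280 TPM, 274, 277 and 297, and 227, 215 and 231 in the same order. It fell by 0.29 and 0.33 (limma adjusted p = 0.0348 and 0.0243). Of 20 alternative fits, the call against PBS was kept in 17 for Ptger4, 14 for Tnfrsf1b and 7 for Tnfrsf1a, and that against HEK-EV in 15, 11 and 13.

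The interleukin-1 receptors followed other patterns. Il1rap, the co-receptor that interleukin-1 signalling needs, was at 15.4, 17.3 and 17.1 TPM in PBS, 23.2, 20.2 and 25.7 in HEK-EV, and 16.9, 13.3 and 16.2 in MSC-EV. The HEK-EV samples were the highest, and MSC-EV minus HEK-EV was -0.55 (SE 0.111, limma adjusted p = 0.0282), while HEK-EV minus PBS was 0.45 (SE 0.111, limma adjusted p = 0.999). Il1r1, the signalling receptor, was low, at 1.58 to 2.46 TPM in PBS, 1.64 to 1.94 in HEK-EV and 0.894 to 1.34 in MSC-EV. Its MSC-EV values lay below all others, with MSC-EV minus PBS at -0.56 (limma adjusted p = 0.0597), which passed the threshold with median-of-ratios scaling (0.0486) and quantile normalization (0.0375). Il1r2, the decoy receptor that binds interleukin-1 without signalling, was at 161 to 199 TPM in PBS, 165 to 277 in HEK-EV and 204 to 232 in MSC-EV. Its MSC-EV values lay above those of PBS, with a difference of 0.32 (limma adjusted p = 0.34), and neither gene passed the test on TPM. Of the receptors for the other cytokines, Il10ra was at 176 to 270 TPM, Il10rb at 277 to 337, Il6ra at 96.2 to 145 and Il27ra at 1.39 to 3.09. None of these 4 passed in any of the 4 comparisons on TPM, and Il10rb was called higher in MSC-EV against PBS with quantile normalization (0.27, limma adjusted p = 0.046).

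Partner and related cytokines had 11 genes tested out of 16 symbols listed, of which 14 were matched. The unmatched symbols were Il36a and Il36g, the latter another name of the listed Il1f9. In MSC-EV against PBS, 1 of the 11 was called lower and 0 higher. By sign alone, 9 of the 11 were below 0 and 2 above. The called gene was Il18, an interleukin-1 family cytokine, at 59.3, 81.8 and 70.0 TPM in PBS, 63.3, 62.7 and 56.2 in HEK-EV, and 47.5, 38.9 and 54.6 in MSC-EV. It fell by 0.57 on the log2 scale (SE 0.137, limma adjusted p = 0.0476), a call kept in 5 of 20 alternative fits and in none of the 3 other scalings. Tgfb1, which encodes a repair and restraining cytokine, fell by 0.35 in MSC-EV against HEK-EV (limma adjusted p = 0.0215), from 351 to 366 TPM to 266 to 299 TPM, and was called in 14 of 20 alternative fits. Il1f9, which encodes interleukin-36 gamma, was at 32.9 to 58.2 TPM in PBS, 55.3 to 72.6 in HEK-EV and 37.9 to 57.3 in MSC-EV, with HEK-EV minus PBS at 0.70 (limma adjusted p = 0.999).

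Genes of processing and release, such as the inflammasome sensor Nlrp3 (91.2 to 151 TPM) and the interleukin-1 beta converting enzyme Casp1 (119 to 154 TPM), gave 0 calls among 13 tested in MSC-EV against PBS. In MSC-EV against HEK-EV, Capn2, a calpain, was the 1 gene called, and it was lower, in 5 of 20 alternative fits as well. Of 9 prostanoid genes tested, 0 were called against PBS on TPM. Pla2g4a, the phospholipase that frees arachidonic acid, fell by 0.36 in MSC-EV against HEK-EV (limma adjusted p = 0.0458), a call kept in 3 of 20 alternative fits and in 1 of the 9 that left out a library. Hpgds, the prostaglandin D synthase of blood cells, was at 38.8 to 79.9 TPM in PBS, 46.5 to 58.9 in HEK-EV and 91.5 to 105 in MSC-EV, with MSC-EV minus PBS at 0.88 (limma adjusted p = 0.0545). It was called higher on FPKM (0.0447), with median-of-ratios scaling (0.0481) and with quantile normalization (0.0472), where Slco2a1, a prostaglandin transporter, was also called, lower (-0.81). Of 8 nitric oxide and arginine genes tested, Gch1, which makes the cofactor of nitric oxide synthases, fell by 0.46 in MSC-EV against PBS (limma adjusted p = 0.0392), and no other gene of that list passed. That call was kept in 5 of 20 alternative fits, in 1 of the 9 that left out a library and in none of the 3 other scalings.

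The list of NF-kB subunits and feedback genes held 24 genes. Beside these it takes in the transcription factors Stat3, Cebpb and Cebpd and the receptor gene Il1rl2, so its counts are not of NF-kB genes alone. Of the 24, 4 were called lower and 0 higher in MSC-EV against PBS. By sign alone 19 were below 0 and 5 above. Zfp36, whose protein speeds decay of Tnf and other cytokine messages, was at 2013, 2325 and 2840 TPM in PBS, 2034, 1988 and 2612 in HEK-EV, and 1569, 1403 and 1615 in MSC-EV. The MSC-EV samples lay below all others, and Zfp36 fell by 0.63 against PBS (SE 0.141, limma adjusted p = 0.0386). Cebpb, a transcription factor of Il1b and Il6 induction, fell by 0.52 (limma adjusted p = 0.0273). Irak3, an inhibitor of interleukin-1 and Toll-like receptor signalling, and Stat3, the transcription factor downstream of interleukin-6 and interleukin-10, fell by 0.38 and 0.35. These calls were kept in 9 of 20 alternative fits for Zfp36, 12 for Cebpb, 13 for Irak3 and 6 for Stat3. In MSC-EV against HEK-EV, where 5.91% of all genes were called, 6 genes of this list were called lower and 0 higher: Irak3, Stat3, Bcl3, Cebpd, Nfkb2 and Rela. The signs there were again 19 below 0 and 5 above, and the 6 calls were kept in 7 (Bcl3) to 15 (Irak3 and Stat3) of 20 alternative fits. Nfkbia, the inhibitor that NF-kB induces, was at 364 to 507 TPM and did not pass.

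**Figure D4:**
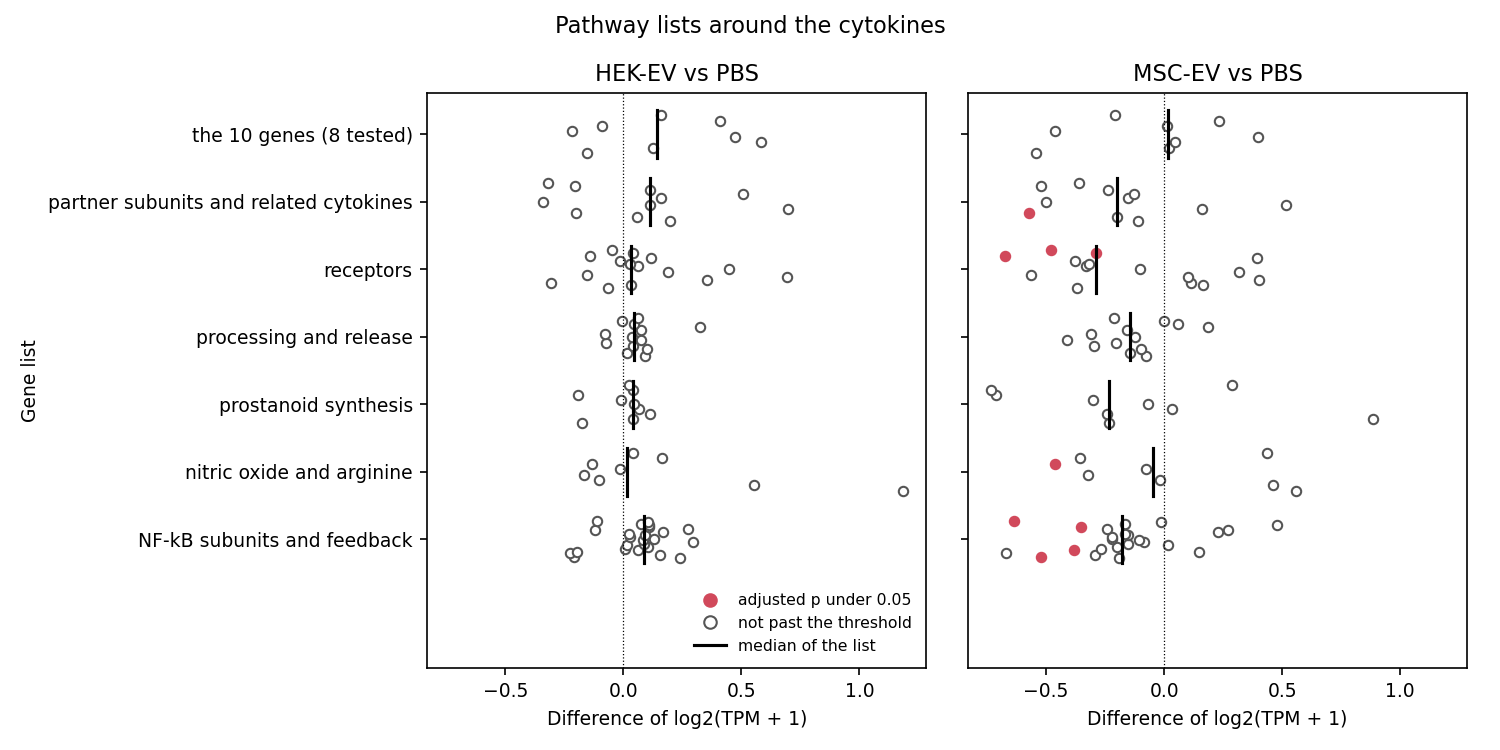
Differences of log2(TPM + 1) from PBS for each tested gene of the 10 members and of 6 gene lists, HEK-EV on the left and MSC-EV on the right; filled points passed an adjusted p of 0.05 and bars are list medians. Filled points occur on the MSC-EV side only, among receptors, partner cytokines, nitric oxide genes and NF-kB genes.

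Over the 6 lists, 80 genes were tested of 93 symbols listed, among them the unmatched Il36a and Il36g. In MSC-EV against PBS 0 were called higher and 9 lower, 11.2% against 5.11% of all genes, of which 1.86% were called higher and 3.25% lower. In MSC-EV against HEK-EV the counts were 0 and 13, 16.2% against 5.91%, of which 1.51% were higher and 4.40% lower. In HEK-EV against PBS, and in both vesicle groups against PBS, 0 were called. By sign, 59 of the 80 were below 0 and 21 above in MSC-EV minus PBS, and 25 below and 55 above in HEK-EV minus PBS, 2 comparisons that share the PBS samples. Over all genes tested, 6589 were below 0 and 7231 above in the first, and 5386 and 8434 in the second. The HEK-EV list medians lay above 0, from 0.01 for nitric oxide genes to 0.11 for partner cytokines, beside 0.03 for all genes, and that of nitric oxide genes turned below 0 under each of the 3 other scalings, as that of receptors did with median-of-ratios scaling. The list medians in MSC-EV minus PBS were -0.20 for partner cytokines, -0.29 for receptors, -0.14 for processing, -0.23 for prostanoid genes, -0.05 for nitric oxide genes and -0.18 for NF-kB genes, beside 0.01 for all genes. The counts depended on the scaling. In MSC-EV against PBS, 1 was called higher and 1 lower of 74 tested on FPKM, 1 and 5 of 80 with median-of-ratios scaling, and 2 and 7 with quantile normalization, where 3.98%, 4.43% and 5.07% of all genes were called. In MSC-EV against HEK-EV the counts were 1 and 4, 0 and 6, and 1 and 9 in the same order, beside 3.63%, 3.63% and 5.02%. On FPKM the nitric oxide median turned to 0.02, and the other 5 kept their sign. The share of calls that were higher over all genes was 36.4% on TPM, 58.7% on FPKM, 45.6% with median-of-ratios scaling and 44.5% with quantile normalization.

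The calls of these lists changed when 1 library was left out, as did those over all genes. In MSC-EV against PBS the genes called fell from 706 to 5 without PBS replicate 2 and to 7 without PBS replicate 3. Without PBS replicate 2, 0 of the 9 calls against PBS remained (limma adjusted p from 0.0646 to 0.181), and without PBS replicate 3, 0 remained (0.0596 to 0.134). Without MSC-EV replicates 1, 2 and 3 there remained 1, 2 and 5, and without HEK-EV replicate 2 there remained 4. With a yes-or-no term for an acinar share above 0.003%, 0 remained (limma adjusted p from 0.0671 to 0.188). That term marked no PBS sample, so it is partly confounded with the comparisons against PBS. On FPKM 1 of the 9 remained, and with median-of-ratios scaling 4. Of the 13 calls against HEK-EV, 0 remained without any 1 of the 3 HEK-EV replicates or without MSC-EV replicate 1 or 2, with adjusted p of up to 0.148, and 7 remained without MSC-EV replicate 3. All of these genes kept their direction when 1 library was left out, and over those fits Ptger4 ran from -0.73 to -0.59 and Irak3 from -0.42 to -0.35 in MSC-EV minus PBS.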

How the data were processed

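RNA of CD11b+ liver cells was sequenced in 9 samples, 3 per group, with stranded libraries per the labels' protocols. Reads were processed with HISAT2 2.1.0 and StringTie on build mm10, per the submitters' processing notes, which give no order or settings. Values in the deposited tables are transcripts per 1000000 (TPM), which sum to that number in each sample, and FPKM, fragments per kilobase and per 1000000 fragments. A coverage column, the average signal along each gene, is also present per the file headers. Gene names are blank there, so gene IDs were matched to RefSeq GRCm38.p6 (45679 of 45777 matched), and rows of 1 ID were summed.

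The limma package (3.58.1, R 4.3.3) was used on log2(TPM + 1) with trend, two-sided, all 9 samples in 1 fit and no covariate. P-values were adjusted over 13820 genes by Benjamini-Hochberg, with a threshold of 0.05. Exact permutation of 3 against 3 cannot go below 0.1 and was not used. Counts were not used here, so no count model was fitted. The test was tried on simulated data first. Loading and figures used Python 3.11.15, pandas 2.3.3 and matplotlib 3.10.9. Replicate numbers of the labels did not pair the samples.

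The 10 genes, the 6 lists around them and the marker lists were chosen with earlier results of these data known, so no count over a list is independent evidence. Named were the 10 genes, up to 4 called genes per list and comparison by smallest p, direct receptors and partners, and the 3 nearest profiles of members with a mean of at least 5 TPM. Outside that rule, and chosen after their values were seen, are Itgam, Ptprc, the antisense partners and the 2 further NF-kB genes called against HEK-EV. So are Hpgds, Slco2a1, Il1f9, Nlrp3, Casp1, Nfkbia and the named genes of the marker lists. The same holds for Cxcl9, Igkv8-19, Socs1 and Il12rb2 in the closing section. Alternatives were other pseudocounts, filters and scalings, only the samples compared, sample weights and a replicate block. Further ones had the coverage ratio or a split of the acinar share as a term, or left out each sample in turn.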

Additional observations from a re-analysis of the deposited data

How the results depend on the processing

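Of 628 alternative values for the 32 member differences, 582 kept direction and side of the threshold, 9 newly passed it, 37 changed sign and 0 lost a call, since there was none to lose. The number of members called was 3 in MSC-EV against PBS with array quality weights (Il1rn, Il27 and Ptgs2) and 4 in both groups against PBS (these and Il1b), where 30.1% and 18.3% of all genes were called. It was 1 in MSC-EV against HEK-EV with the coverage ratio as covariate (Il1b, with 10.2% of all genes called). That ratio was higher in each MSC-EV sample than in any sample of the other groups. In MSC-EV against PBS the number of members called was 0 to 1 when 1 library was left out. The 1 was Il1rn without MSC-EV replicate 3, where 3.39% of all genes were called. Over these fits with 1 library left out, that share ran from 0.0362% (without PBS replicate 2) to 13.5% (without PBS replicate 1).

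Genes called in MSC-EV against PBS, 706 as reported, numbered 361 with no filter, 77 with only the 6 samples, 4163 with array weights, 404 with the replicate block, 1279 with the coverage ratio, 21 with the acinar term and 5 to 1861 with 1 library left out. In HEK-EV against PBS, 0 as reported, they numbered 4 with no filter and 0 to 2 with 1 library left out. In MSC-EV against HEK-EV, 817 as reported, they numbered 387 with no filter, 436 on FPKM, 501 with median-of-ratios scaling, 2081 with array weights, 448 with the block, 1412 with the coverage ratio and 0 to 1369 with 1 library left out. There the share of calls that were higher was 25.6% on TPM, 54.8% on FPKM, 43.9% with median-of-ratios scaling and 45.5% with quantile normalization. In both groups against PBS, 1 as reported, they numbered 2 with no filter, 2527 with array weights, 243 with the coverage ratio, 0 to 462 with 1 library left out, and 0 on FPKM, with median-of-ratios scaling, the block or the acinar term. Same-numbered samples had correlations of -0.499 to 0.058, so the numbers were not read as pairs.

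Signs turned as follows, and the cause was not tested. With the coverage ratio, MSC-EV minus PBS was -0.35 for Il1b, -0.053 for Il1a and -0.13 for Il6, and HEK-EV minus PBS was 0.065 for Il10. For Il6, MSC-EV minus PBS was also -0.0059 with median-of-ratios scaling, -0.076 with quantile normalization, -0.42 with array weights and -0.19 with the acinar term. MSC-EV minus HEK-EV was 0.038 for Il1a and 0.050 for Il1rn with array weights, and 0.0040 for Il1rn with quantile normalization. Both groups minus PBS was 0.036 for Tnf with array weights and 0.080 with the acinar term. With 1 library left out, Il1b ran from -0.11 to 0.24 in MSC-EV minus PBS, Il1rn from -0.23 to 0.13 in MSC-EV minus HEK-EV and Tnf from -0.11 to 0.089 in both groups minus PBS. Il1a ran from -0.15 to 0.11 in MSC-EV minus PBS, -0.12 to 0.33 in HEK-EV minus PBS, -0.31 to 0.14 in MSC-EV minus HEK-EV and -0.046 to 0.18 in both groups minus PBS. Il6 ran from -0.26 to 0.31, -0.45 to 0.30, -0.29 to 0.46 and -0.31 to 0.26 in the same order. The planned acinar split at 0.001% of TPM put all samples on 1 side and was not run. A split at 0.003%, chosen after seeing the data, took its place. It put HEK-EV replicates 1 and 2 (0.00414% and 0.121%) and MSC-EV replicates 1 and 3 (0.0158% and 0.343%) above the cut. No PBS sample lay above it.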

Other observations

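Some other genes than Nos2 were also highest in MSC-EV replicate 1. Cxcl9, a chemokine that interferon-gamma induces, was at 115 TPM in that library and at 6.61 to 20.5 TPM in the other 8. Il12rb1, a receptor chain for interleukin-12, was at 3.17 TPM against at most 1.16, Lta at 1.22 TPM against at most 0.375, and Ptger1 at 0.860 TPM against at most 0.0671. Socs1, a feedback inhibitor of cytokine signalling, was at 6.97 TPM against at most 5.46. Il12rb2, the other receptor chain for interleukin-12, was not the highest there, at 2.95 TPM against 3.03 in MSC-EV replicate 3. Nos2, Cxcl9 and the immunoglobulin gene Igkv8-19 were the 3 genes at least 4-fold above every other library there on TPM + 1, and each of the other 8 libraries had 0 to 2 such genes. These genes were chosen after their values were seen, and no test was made on 1 library.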
